A study of Mus musculus with 6 samples.

Results

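miR-21 was followed here in activated mouse macrophages, as the 1 entry named mmu-miR-21 among 611 mouse microRNAs (miRNAs) on the array. It was chosen by name, in both the spot-level and the gene-level tables, and 2 probes with 10 spots each read it on every array. The study asked which miRNAs act downstream of Notch in macrophage polarization. The macrophages were grown from bone marrow of female C57BL/6 mice, whose age the labels do not give. The knockout group (3 samples) carried MxCre with floxed RBP-J on both alleles. The control group (3 samples) carried MxCre with 1 floxed and 1 intact allele, so it was heterozygous although its titles say WT. RBP-J is the DNA-binding partner of activated Notch receptors. All mice of both groups had received poly(I)-poly(C), which induces Cre through the interferon-responsive Mx promoter, and all macrophages were given LPS (lipopolysaccharide, a bacterial outer-membrane component) for 24 h. The Mx promoter is not specific to macrophages, there was no unstimulated sample, and a miRNA array does not read Rbpj mRNA, so neither the deletion nor the response to LPS could be checked. The labels do not say whether replicates were separate animals, so p-values measure only the spread between these samples.

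miRNAs are short RNAs that guide Argonaute proteins to complementary sites in messenger RNAs, mainly through the seed at bases 2 to 8. miR-21 is cut from a hairpin whose gene overlaps the end of Vmp1, and its transcription is raised by AP-1, STAT3 and NF-κB. In macrophages it is known to be induced by LPS and to repress Pdcd4, a change tied to lower NF-κB activity and more interleukin-10. Sprouty genes are other known targets.

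The mature sequences carry the identity of what the probes were designed to read, so they are given first. All come from RefSeq (GRCm38.p6), because the array files used here name no genome build and hold no probe sequence. RefSeq lists the array's older name among the synonyms of Mir21a. The hairpin lies at chr11:86584067-86584158 on the minus strand, inside the span of Vmp1, and both mature arms are in capitals here, at its bases 18 to 39 and 56 to 77.
Mir21a hairpin: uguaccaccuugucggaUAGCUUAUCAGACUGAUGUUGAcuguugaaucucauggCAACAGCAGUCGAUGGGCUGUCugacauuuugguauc
In the next lines capitals mark the seed. The first arm is miR-21 itself (chr11:86584120-86584141, minus strand), and the second is its passenger strand miR-21* (chr11:86584082-86584103, minus strand). miR-21c (chr8:128278188-128278208, minus strand) and miR-21b (chr3:29636768-29636790, plus strand) are shown because they are the miR-21 paralogs in the RefSeq table, neither of which is an entry of this array.
miR-21a-5p: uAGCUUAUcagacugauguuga
miR-21a-3p: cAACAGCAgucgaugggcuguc
miR-21c: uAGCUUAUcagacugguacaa
miR-21b: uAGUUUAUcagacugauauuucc
The seed of miR-21, AGCUUAU, occurred in 2 of 1679 mature names of the table, miR-21a-5p and miR-21c. miR-21c shared the first 15 bases with miR-21 and only the last 1, and miR-21b shared a run of 13 bases but another seed. Outside these paralogs, the longest run that any of 1675 mature names shared with miR-21 was 11 bases, and the most 3′ end bases shared was 5. The match in a target to this seed reads AUAAGCU.

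miR-21 gave the highest total signal of all 611 mouse miRNAs on each of the 6 arrays. The total is the sum of the scanner software's own probe totals for a miRNA, in intensity units. These totals are on another scale than the spot signals given below. On control replicate 1 the median spot of the brighter miR-21 probe alone read 30457 units. The miR-21 total was 28043, 29742 and 35238 in control replicates 1, 2 and 3, and 27776, 19362 and 25557 in knockout replicates 1, 2 and 3. All 3 knockout arrays lay below the lowest control, with knockout replicate 1 just under control replicate 1 and knockout replicate 2 lowest of all. Control macrophages averaged 31008 ± 3761 units (SD, n = 3) and knockout macrophages 24232 ± 4360 units (SD, n = 3), a knockout over control ratio of 0.781. A two-sided exact permutation test gave p = 0.1, the smallest value that 3 arrays against 3 can give. Without scaling between arrays, 38 of the 135 miRNAs tested (28.1%) likewise had every knockout array below every control, and 0 (0%) had every one above. The separation between the groups was narrow. On the median spot signal of the brighter probe the ratio was 0.778 (exact permutation p = 0.1). With the mean of those spots in place of their median it was 0.777, but the exact permutation p was 0.2. In a bulk sample, fewer cells of a type and less RNA per cell cannot be told apart. Neither can be told apart here from array position, because no slide row held arrays of both groups.

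The summed signal of the other miRNAs was also lower in the knockout. Summed over all mouse miRNAs other than miR-21, the control arrays read 38167 ± 4389 units (SD, n = 3) and the knockout arrays 29021 ± 2299 units (SD, n = 3), a ratio of 0.760 (two-sided exact permutation p = 0.1). Among the 20 brightest of these others the ratio ran from 0.557 for miR-221 to 1.01 for miR-1224. miR-21 made up 42.6% of the difference in summed signal between the group means. The mr_1 control spots stood at 1140 ± 138 units (SD, n = 3) on control and 989 ± 77.5 units (SD, n = 3) on knockout arrays (exact permutation p = 0.1), a ratio of 0.867. Their part in the lower miR-21 signal was not tested. Divided by these spots, miR-21 overlapped between the groups, at 27.6 ± 5.94 (SD, n = 3) and 24.6 ± 4.95 (SD, n = 3), with an exact permutation p = 0.5.

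miR-21 alone held between 42.2% and 47.5% of the summed mouse miRNA signal. Its share was 42.2%, 46.9% and 45.3% in control replicates 1, 2 and 3, and 47.5%, 42.3% and 46.0% in the knockout replicates. The highest and the second lowest share both came from knockout arrays, so the groups overlapped. The control mean of 44.8% ± 2.36 (SD, n = 3) and the knockout mean of 45.3% ± 2.68 (SD, n = 3) differed by 0.46 percentage points (two-sided exact permutation p = 0.7). This direction rested on single arrays: without control replicate 1 the knockout share was lower by 0.83 points (-0.83), and without knockout replicate 1 it was lower by 0.68 (-0.68). The share varied less between arrays than the total did, with coefficients of variation of 5.27% and 5.92% against 12.1% and 18% in control and knockout. Part of this follows from the measure, since miR-21 is a large part of the sum it is divided by. For the ratio of miR-21 to all other mouse miRNAs summed, the coefficients were 9.42% in control and 10.6% in knockout. Signal depends on each probe's design, so this is a share of signal and not of molecules. It changed little with what was summed: it ran from 42.9% to 48.2% over the 110 miRNAs detected on all arrays, and from 42.0% to 47.7% over the brightest probe of each miRNA.

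**Figure D1:**
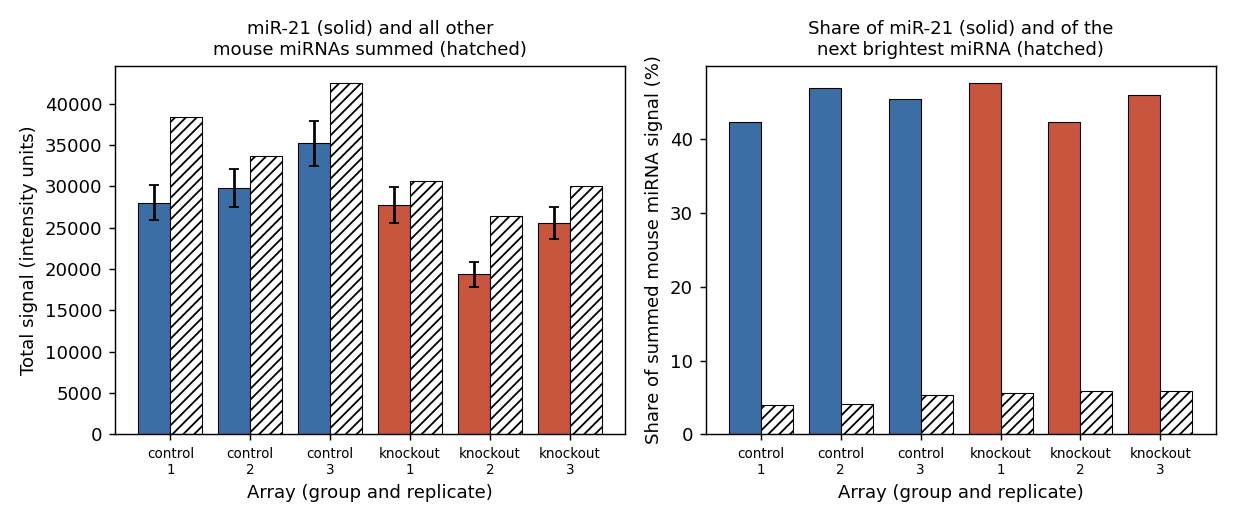
Left, total signal per array in intensity units of miR-21 (solid bars, error bars are the scanner software's own error estimate) and of all other mouse miRNAs summed (hatched bars). Right, the share of summed mouse miRNA signal in percent held by miR-21 (solid) and by the next brightest miRNA (hatched). Control arrays are blue and knockout arrays red: miR-21 totals are lower on the knockout arrays while its share overlaps between the groups, from 42.2% to 47.5%.

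Below miR-21 in the order of mean control signal came 5 miRNAs with far smaller shares. They are shown with the seed in capitals because none of them shares the seed of miR-21 or more than 5 bases in a row with it. Their arms were taken from their usual names, as those of miR-21 were, and all 7 array names looked up in RefSeq were found.
miR-1224: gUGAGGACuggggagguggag
miR-24: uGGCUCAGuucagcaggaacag
miR-23a: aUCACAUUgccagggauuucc
miR-22: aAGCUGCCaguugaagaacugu
miR-223: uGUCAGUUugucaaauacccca
miR-1224 held 4.32% of the control signal on average and 5.75% of the knockout signal. miR-24 and miR-23a, which are made from shared clusters, held 3.68% and 3.06% of the control signal. miR-22 held 2.98%, and miR-223, a granulocyte and macrophage miRNA, 2.76%. The place right after miR-21 went to miR-1224 on 5 arrays and to miR-223 on control replicate 1, with a share of 4.01% to 5.83%. The 10 miRNAs that followed miR-21 held 25.6% to 29.0% together, so that miR-21 by itself gave more signal than these 10 on every array. None of the 5 next brightest was called between genotypes in the fit described below (limma adjusted p = 0.637 or more each). miR-1224 differed by 0.50 (95% interval 0.08 to 0.91) on its scaled log2 signal, with all 3 knockout arrays above the controls. On this scale the groups did not overlap for 14 of 135 tested miRNAs (10.4%). In total signal miR-1224 overlapped, with a knockout over control ratio of 1.01. Its totals were 2322, 2647 and 4105 units in control and 3272, 2658 and 3239 units in knockout replicates.

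**Figure D2:**
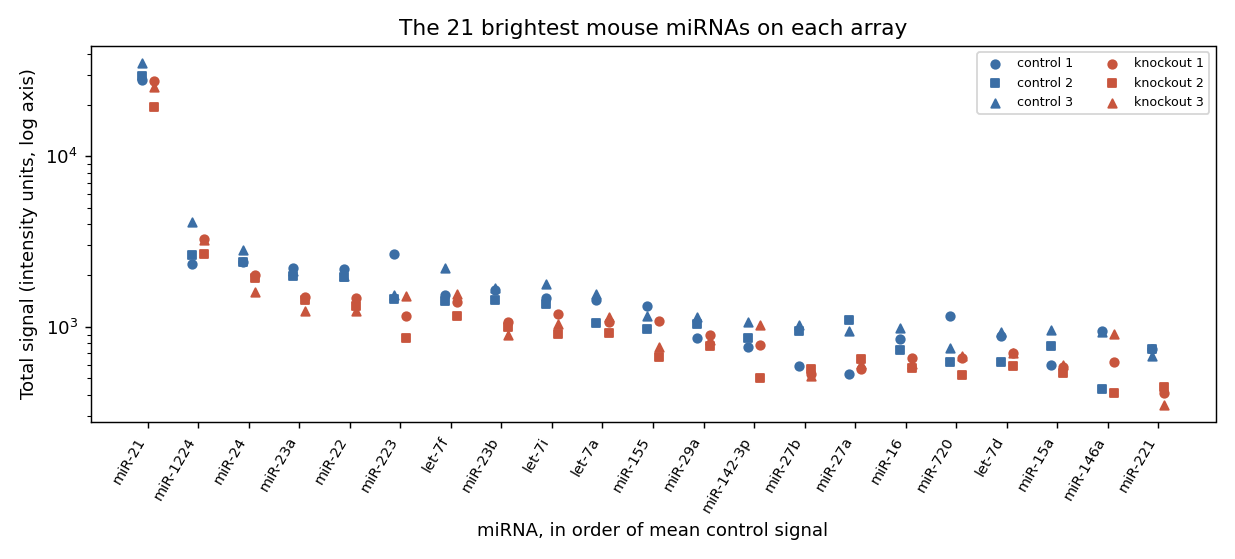
Total signal in intensity units, on a log axis, of the 21 miRNAs with the highest mean control signal, with 1 point per array (blue control, red knockout, marker shape by replicate). miR-21 lies above all others on every array, with its lowest point at 19362 units.

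Both miR-21 probes put the 6 arrays in the same order. A_54_P1307 was the brightest and A_54_P1308 the second brightest of 1759 mouse probes on all 6 arrays. Median spot signals of A_54_P1307 were 30457, 32082 and 38389 units on the control arrays and 30272, 20788 and 27413 units on the knockout arrays, in replicate order. Those of A_54_P1308 were 11904, 12577 and 15367 units in control and 11351, 8252 and 10391 units in knockout macrophages. Both probes put control replicate 3 highest and knockout replicate 2 lowest, and on both all knockout arrays lay below the controls. The log2 ratio of the first to the second probe kept between 1.32 and 1.42, a range of 0.09, while the total varied 1.82-fold between arrays.

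Within an array the spots of a probe scattered by a coefficient of variation of 1.11% to 8.08%. The software's own error estimate for the miR-21 total was 7.72% to 7.79% of the signal, below the 12.1% and 18% between arrays of a group. The brightest miR-21 spot reached 41721 units, which is 5.36% of the scanner's saturation value of 778962, so no spot was saturated. Negative control spots on the same arrays averaged 0.81 to 2.73 units. Of 120 miR-21 spots the software flagged 9 as outliers, all 9 on knockout arrays (2, 5 and 2 in replicate order) and 0 of 60 on control arrays. Over all mouse spots the flagged share was alike in the groups, at 2.64% to 2.85% on control and 2.70% to 3.04% on knockout arrays. Keeping the flagged miR-21 spots left the ratio of the brighter probe at 0.773, against 0.778 without them, an alternative added after seeing the data.

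**Figure D3:**
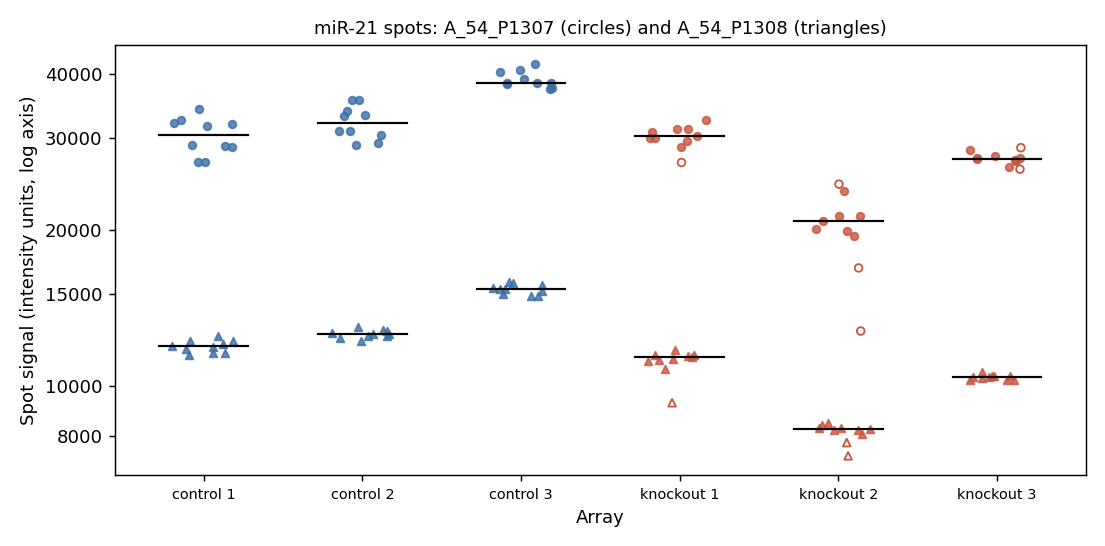
Signal of each miR-21 spot in intensity units on a log axis, by array, for probes A_54_P1307 (circles) and A_54_P1308 (triangles). Black lines are medians of the spots used and open symbols are spots the scanner software flagged, which occur on knockout arrays only; the 2 probes follow the same order of arrays from knockout replicate 2 (lowest) to control replicate 3 (highest).

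On the scale that adjusts for array brightness, miR-21 was not called different between genotypes. This scale is log2 of the brighter probe's signal over the array's 75th percentile among 200 probes well above background on all arrays. miR-21 stood at 6.73, 7.05 and 6.77 in control replicates 1, 2 and 3 and at 7.06, 6.80 and 6.92 in the knockout replicates. The groups overlapped, with control replicate 2 and knockout replicate 1 nearly level at the top. The knockout minus control difference was 0.08 (SE 0.17; limma adjusted p = 0.868), with a 95% interval from -0.30 to 0.46. As a fold this is 1.06, with an interval from 0.812 to 1.38. limma called 0 of 135 miRNAs (0%), with 6 (4.44%) at an unadjusted p under 0.05, and the groups did not overlap for 14 miRNAs (10.4%); miR-21 was in none of these counts.

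The sign of this difference changed between processing settings. The 75th percentile itself was lower on the knockout arrays, at 213 ± 23.2 (SD, n = 3) against 294 ± 55.1 (SD, n = 3) units, a ratio of 0.724 that lies below the ratio of miR-21. The difference was -0.087 with all mouse probes as the reference, -0.10 against the mean of miR-16, miR-103, miR-191 and miR-26a, -0.042 with gene-level totals and -0.37 with no scaling (limma adjusted p = 0.297 and 95% interval -0.84 to 0.10 for the last). Of those 4 reference miRNAs miR-191 was detected on 0 arrays, and against the mean of the other 3, an alternative added after seeing the data, the difference was -0.011. Relative to the median miRNA of the same fit it was -0.03 as reported, -0.05 with all probes, -0.06 with the reference miRNAs, -0.05 with totals and -0.06 with no scaling. With normexp background correction it was -0.24 relative to a median that had risen to 0.24. The 2 probes fitted singly among 251 tested probes, of which 0 (0%) were called, gave 0.08 (SE 0.16) and 0.04 (SE 0.16), 0.04 apart. Over the 96 tested miRNAs with several tested probes, the median spread between the highest and lowest probe was 0.05.

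miR-21 was among the steadier miRNAs within a genotype. Its residual SD was 0.15 on the log2 scale, the 25th smallest of 135, where the median was 0.23. The size of its difference ranked 106th from the largest. All 6 arrays lay within 0.33 on the log2 scale, a 1.26-fold range. By the array positions in the headers, in the 4 arrays of slide column 1 the difference was 0.04 and between the 2 arrays of column 2 it was 0.16. Control replicates 1, 2 and 3 lay in slide rows 1, 3 and 1, and the knockout replicates in rows 2, 4 and 2. No row held both groups, so genotype and slide row cannot be told apart. Leaving out each array in turn gave 0.02 to 0.18, the lowest without knockout replicate 1 and the highest without control replicate 2.

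**Figure D4:**
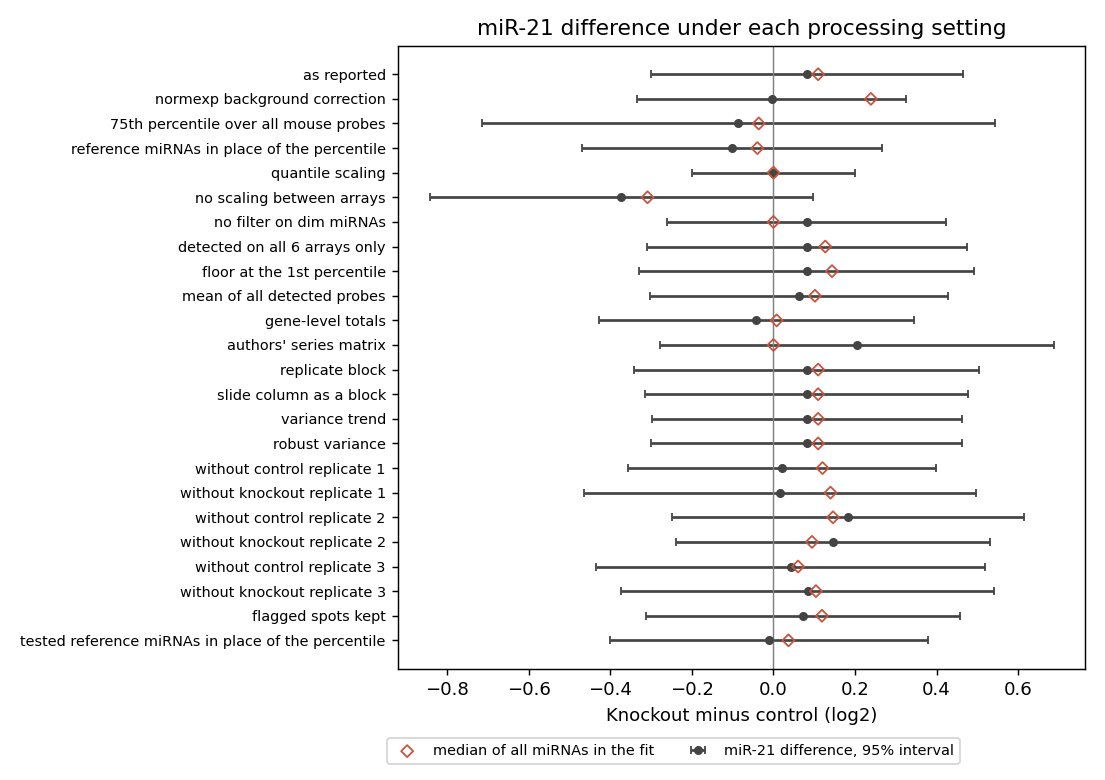
Knockout minus control difference of miR-21 (points, log2, with 95% intervals) and the median difference of all miRNAs in the same fit (diamonds) under each processing setting. Every interval includes 0, and the miR-21 point lies between -0.37 with no scaling between arrays and 0.21 in the authors' matrix, on either side of the median.

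In the authors' deposited series matrix miR-21 had the same log2 value on 5 of the 6 arrays. All 6 columns share 1 highest value, 14.74, and 1 second value, 14.13, a property of quantile normalized tables. miR-21 held the highest value on those 5 arrays. On control replicate 1 it held the second value, and the control feature hur_2 held the highest. In the totals of that array hur_2 read 29658 and miR-21 28043 units, while on the other arrays hur_2 read 14234 to 19022, below miR-21 each time. The matrix thus gave a knockout minus control difference of 0.21 (limma adjusted p = 0.833), and without control replicate 1 the difference was 0. The quantile scaling computed here from mouse probes alone gave 0 by the same construction, since the brighter miR-21 probe ranked first on every array.

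miR-21*, the passenger strand of the hairpin, was barely above background. Its brightest probe, A_54_P3447, read 11.1, 8.07 and 14.5 units in control and 8.28, 9.04 and 4.96 units in knockout replicates 1, 2 and 3, and was well above background on control replicate 3 alone. The groups overlapped, and the strand was not tested because it was detected on fewer than 3 arrays. Its total averaged 3.94 ± 2.07 units (SD, n = 3) on control arrays and 3.58 ± 1.42 units (SD, n = 3) on knockout arrays. The software's own call counted miR-21* as detected on 5 of the 6 arrays, all but knockout replicate 3. miR-590-5p, which is not among the mature names searched above and is placed in the miR-21 seed family from general knowledge, was detected on 0 arrays, with totals from -2.26 to -0.26 units.

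The miRNAs whose scaled signal ran most like that of miR-21 over the 6 arrays were miR-188-5p (Pearson r = 0.83), miR-365 (0.80), miR-705 (0.77), miR-29a (0.75) and miR-222 (0.72), among 109 others detected on all arrays. These correlations are a description over 6 arrays that share their scaling, and the median correlation with miR-21 was 0.10. miR-188-5p stood at -2.41, -1.50 and -1.89 in control and at -1.44, -1.69 and -1.52 in knockout replicates. As with miR-21, its lowest array was control replicate 1 and its highest knockout replicate 1. miR-29a, a regulator of collagen and other matrix genes, stood at 1.66, 2.22 and 1.84 in control and 2.10, 2.16 and 2.01 in knockout replicates, lowest on the same array. None of the 5 was called between genotypes (limma adjusted p = 0.637 or more).

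Among miRNAs that LPS or NF-κB induce, miR-21 carried most of the signal. Of 15 listed, 12 were tested, and 0 were called, against 0% of all miRNAs. Of the 12, 5 had a higher and 7 a lower mean in the knockout, beside 97 and 38 of all 135 tested miRNAs. Their median difference was -0.08 beside 0.11 for all tested miRNAs, and -0.16 beside 0 with quantile scaling. It was -0.10 beside 0.24 with normexp, and -0.53 beside -0.31 with no scaling. The list held 48.6% to 53.8% of summed signal, and 6.14% to 7.88% without miR-21. miR-155, which promotes inflammatory activation, held 1.68% of the control signal and differed by -0.04 (SE 0.20). miR-146a, which damps Toll-like receptor signals by repressing Traf6 and Irak1, held 1.1% and differed by 0.19 (SE 0.28). miR-146b, its close relative, differed by -0.12 (SE 0.16). Farther from 0 on this list, and named after their values were seen, were miR-125a-5p (-0.53, SE 0.30), let-7e (-0.47, SE 0.24) and miR-99b (-0.46, SE 0.26), which come from 1 cluster (limma adjusted p = 0.637 each). Their size rested on control replicate 1: without it they were -0.17 (SE 0.15), -0.20 (SE 0.12) and -0.18 (SE 0.16). For let-7e, control replicates 2 and 3, at 0.04 and 0.19, still lay above the knockout arrays, at -0.19, -0.05 and -0.02. Groups did not overlap for 14 of 135 miRNAs (10.4%). miR-221, also named after its value was seen, differed by -0.40 (SE 0.23, limma adjusted p = 0.637). It stood at 1.32, 1.55 and 0.92 in control and 0.81, 1.21 and 0.57 in knockout replicates, so the groups overlapped. miR-9, miR-147 and miR-187 were detected on 0 arrays.

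The list of miRNAs that limit Toll-like receptor signalling, which includes miR-21, miR-146a and miR-146b, was also at 0 calls. Of 10 listed, 6 were tested, and 0 were called, against 0% of all miRNAs. Of the 6, 3 were higher and 3 lower, beside 97 and 38 of all 135 tested miRNAs. Their median was 0.01 beside 0.11 for all tested miRNAs, and -0.05 beside 0 with quantile scaling. With normexp it was -0.06 beside 0.24, and with no scaling -0.45 beside -0.31. miR-223 differed by -0.22 (SE 0.28). let-7i, which targets Tlr4, differed by -0.07 (SE 0.15), and its relative miR-98 by 0.31 (SE 0.22). miR-203, miR-145, miR-105 and miR-124 were detected on 0 arrays.

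**Figure D5:**
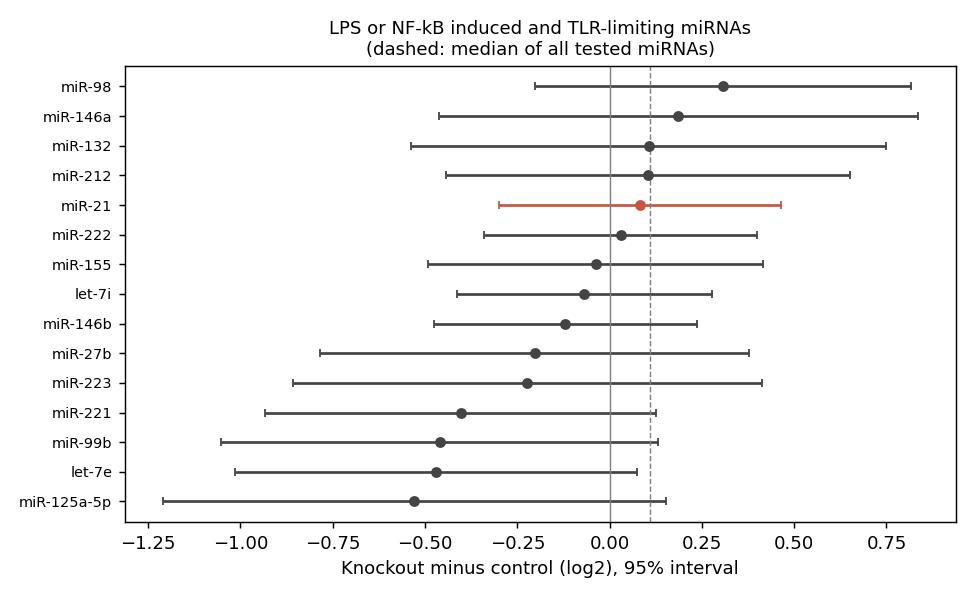
Knockout minus control difference on the log2 scale, with 95% intervals, for the 15 tested miRNAs of the LPS or NF-κB induced and Toll-like receptor limiting lists; miR-21 is red and the dashed line is the median of all tested miRNAs (0.11). Every interval includes 0.

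The labelled cell type was checked on its markers. A marker counted as detected where at least 50% of the spots of any of its probes were well above background. The software's own detection call was not used for them. All 7 macrophage or myeloid markers on the array were detected on all 6 arrays, miR-21 being 1 of them. miR-21 is itself found in many cell types, fibroblasts and epithelium included. Of 27 markers of other cells (lymphocytes, erythroid cells and platelets, endothelium, stroma, epithelium, muscle, neurons), 0 were detected on any array. They included miR-150, miR-451, miR-126-3p, miR-143, miR-145 and miR-200c. Their summed signal was 31.3 to 57.3 units in control and 28.8 to 37.5 in knockout macrophages. The highest mean total among them, that of miR-128, was 8.79 units in control and 7.68 in knockout macrophages. The arrays detected 127 to 141 miRNAs each.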

How the data were processed

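Labelled total RNA (0.5 µg, Cy3) of 6 samples was read on 1-colour Agilent arrays of design 021828, all on 1 slide. Per the file headers, the authors' spot intensities were background-subtracted and detrended by Feature Extraction 10.5.1.1, while the submitters' processing notes name version 9.1. The deposited gene-level totals are sums of the software's probe totals for a miRNA, which are on another scale than the spot intensities. The authors' series matrix holds deposited log2 values; how they were normalized is not stated in the labels or headers used here. Its columns correlated at 0.999 or more with log2 totals over signals above 5, with no ratio direction and no centring per miRNA. Columns that belong to no sample numbered 0.

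Here the median of unflagged spots was taken per probe and divided by the 75th percentile over 200 probes well above background (at least 50% of spots) on all arrays. It was then raised to the 5th percentile of detected signals (-4.32) and log2 transformed. A miRNA took its brightest probe and entered the test if detected on 3 or more of the 6 arrays. limma 3.58.1 (lmFit, eBayes, R 4.3.3) with Benjamini-Hochberg adjustment at 0.05 compared genotypes, without covariates. It was also run on simulated data with independent noise. The changes planted there were larger than that of miR-21, so the run does not show whether one so small would be called. Exact permutation tests were two-sided. Shares use positive totals only. Members, lists and the rule for named miRNAs (miR-21, its strands and seed family, the 5 next brightest, the 5 most alike, up to 4 per list) were chosen with earlier results of these data known. Alternatives covered background, scaling, filter, floor, probes, input, variance, blocks and each array left out. The normexp alternative used median spot signals with an offset of 50. The number of arrays limits the precision.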

Additional observations from a re-analysis of the deposited data

How the results depend on the processing

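The miR-21 genotype difference was called under 0 of 17 alternatives, 2 of them (flagged spots kept, tested reference miRNAs only) chosen after seeing the data (limma adjusted p from 0.297 to 1). It was above 0 in 10, below in 6 and at 0 in 1: normexp gave -0.0047, all probes as reference -0.087, reference miRNAs -0.10, the tested ones among them -0.011, no scaling -0.37, gene-level totals -0.042 and quantile scaling 0. Leaving out each array gave 0.02 to 0.18. Probe A_54_P1307 gave -0.0047 with normexp, -0.37 with no scaling, 0 with quantile scaling and 0.02 to 0.18 leaving out each array. Probe A_54_P1308 gave -0.038 with normexp, -0.41 with no scaling, 0 with quantile scaling and -0.026 to 0.14. The share difference ran from -0.83 to 1.94 percentage points and the signal ratio from 0.716 to 0.857 leaving out each array, and the rank difference stayed at 0. The cause of the sign changes was not tested, except that quantile scaling fixes the top value. miR-21* differed by -3.79 units on its brightest probe, -0.36 in totals and -5.36 to -2.17 leaving out each array. Other alternatives for miR-21* were not run, because its values lie at or near the floor. The numbers called, in all and in both lists, were 0 under each of the 6 alternatives and 6 leave-one-out fits run for them. Deviations of same-numbered arrays correlated at 0.17, -0.07 and 0.37, and the numbers were not taken as pairs. These correlations cannot decide on pairing, because differently numbered arrays were not compared. With the replicate block the miR-21 difference was 0.08 (limma adjusted p = 0.857), with 0 calls. Keeping flagged spots gave 0.07.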
